A study of Mus musculus with 4 samples.

Results

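The 10 genes described here are those usually followed in epithelial-mesenchymal transition (EMT): the cadherins *Cdh1* and *Cdh2*, the myofibroblast genes *Acta2* and *Tagln*, the matrix gene *Fn1*, and the transcription factors *Snai1*, *Snai2*, *Zeb1*, *Zeb2* and *Twist1*. They were taken by name, with no measured value in the rule, although earlier results of these data were known. They are 10 of the 56748 genes in the deposited table. The test covered 15997 genes, among them 9 of the 10. Only *Tagln*, whose level lay under the filter of a mean of 0.1 FPKM (fragments per kilobase of gene, scaled by a factor for each library), was left out.

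Poly-A RNA was sequenced from pooled lenses of mice aged 10 to 12 days, with 2 mutant and 2 control libraries, all on an FVB/N background. The mutant mice carried *Fsp1-cre* and 1 *Pdgfrb D849V* allele (*Fsp1-cre;Pdgfrb+/D849V*), an activating change in the receptor for platelet-derived growth factor B and D carried at the endogenous locus and switched on by cre. The control libraries were labelled *Fsp1-cre;Pdgfrb+/+*, whereas the methods of the study describe control pools that also held *Pdgfrb+/+* and *Pdgfrb+/D849V* mice without cre. The *Fsp1* (*S100a4*) promoter is not specific to the lens, so cre may have acted in any cell of the dissected tissue that used this promoter. The paper reports strong cre reporter activity in the lens epithelium at an age after that sampled here. It assumes that the mutant receptor is made once cre is induced. Whether the mutant receptor was made in these pools was not tested here. Each library was a pool of several mice. All p-values therefore measure the spread between 2 pools per group, and in bulk tissue fewer cells of a type and less RNA per cell cannot be told apart.

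In EMT, epithelial cells lose E-cadherin junctions and gain N-cadherin, contractile actin and a fibronectin matrix, and the Snail, Zeb and Twist factors repress the E-cadherin gene. Lens epithelial cells undergo this change in subcapsular cataract and after cataract surgery. The normal lens already departs from the usual pattern, because its epithelium holds both cadherins and the fibre cells keep N-cadherin and the intermediate filament vimentin.

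None of the 9 tested EMT genes differed between mutant and control lenses at an adjusted p under 0.05 by limma, which called 0.0375% of all tested genes. The unadjusted p was under 0.05 for 0 of the 9 by limma, beside 6.31% of all genes, and for 4 of the 9 by limma's voom on recovered reads (*Cdh1*, *Cdh2*, *Snai2* and *Zeb2*, each lower in the mutant), beside 7.43% of all genes in either direction and 4% in the lower direction. Voom called 0 of the 9 after adjustment, beside 0.0875% of all genes. The fitted value was lower in the mutant for 7 EMT genes and higher for *Acta2* and *Fn1*. The median log2 fold change of the 9 was -0.23, and that of all tested genes was 0.0041. The groups did not overlap for 3 of the 9 (*Cdh2*, *Zeb2* and *Snai2*, each lower in both mutant libraries), and this was so for 36.6% of all tested genes in either direction and for 18.3% in the lower direction.

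**Figure D1:**
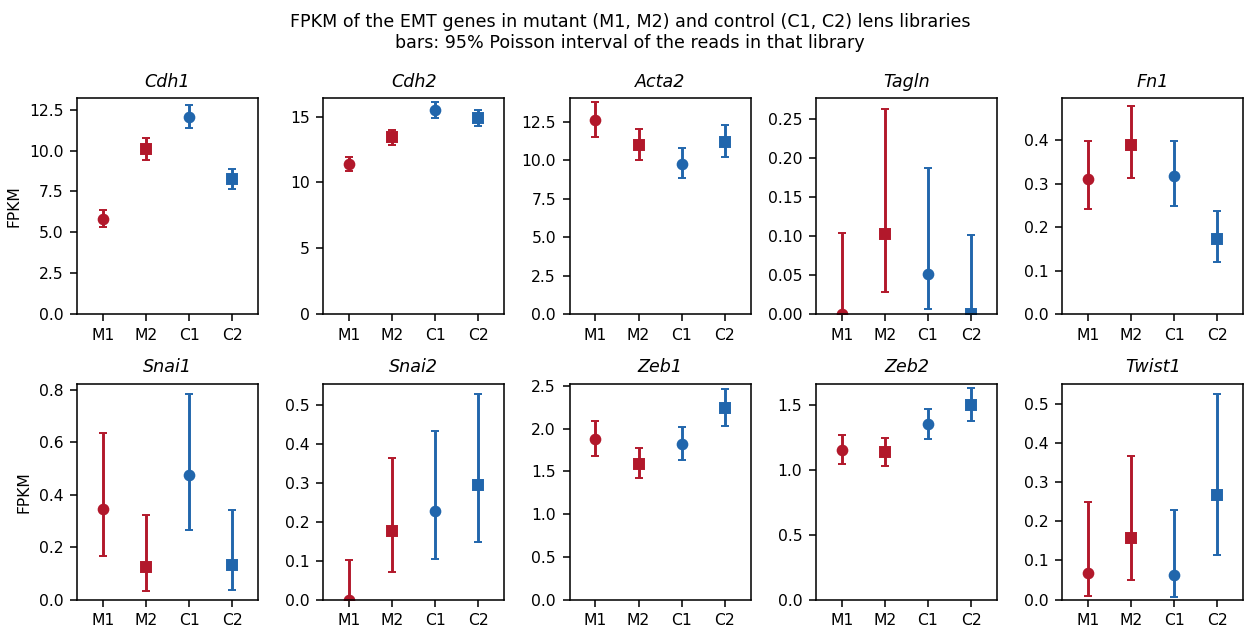
FPKM of each EMT gene (vertical axes, each from 0) in mutant libraries 1 and 2 (M1, M2, red) and control libraries 1 and 2 (C1, C2, blue), with the 95% Poisson interval of the reads in that library, which covers counting error only. *Cdh2* and *Zeb2* sit lower in both mutant libraries, and the levels of *Cdh1* spread from 5.81 to 12.1 FPKM.

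The lens libraries were alike in depth, with 18561682 to 18878768 recovered reads each, of which 58.6% to 62.9% fell on crystallin genes. Among the markers of the labelled tissue, *Foxe3*, the transcription factor of lens epithelium, was at 103 to 122 FPKM, and the fibre gene *Mip* at 3515 to 3974, although *Lim2*, another fibre gene, was listed at 0 in every library. Female-specific *Xist* stood at 7.62 and 13.1 FPKM in mutant libraries 1 and 2 and at 15.6 and 5.56 in control libraries 1 and 2, and the Y-linked *Eif2s3y* ran the other way, at 7.10 and 4.82 in the mutant and at 3.02 and 7.13 in the control. *Pdgfrb* itself was at 2.36 and 2.16 FPKM in the mutant and at 2.25 and 1.79 in the control, which does not check the labels, since the allele changes the protein and not the amount of RNA.

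Positions given with each gene are those of the deposited table (mm39). Ordered by mean level per length over the 4 libraries, *Cdh2* came first at 13.8 FPKM, followed by *Acta2* at 11.2 and *Cdh1* at 9.06. The ranges of these 3 overlapped. *Zeb1* at 1.88 and *Zeb2* at 1.28 formed a middle pair, and their ranges did not overlap. *Fn1* at 0.297, *Snai1* at 0.270, *Snai2* at 0.175, *Twist1* at 0.139 and *Tagln* at 0.0386 were low, and each overlapped its neighbour in this order. Among all tested genes, 92.3% had a lower mean level than *Cdh2*, while 6.70% had a lower one than *Twist1*.

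*Cdh2* (ENSMUSG00000024304, chr18:16721934-16942303, minus strand), encoding N-cadherin, the main adhesion molecule between lens fibre cells, was at 11.4 and 13.4 FPKM in mutant libraries 1 and 2, against 15.5 and 14.9 in control libraries 1 and 2. These values rest on 1636, 2120, 2429 and 2210 reads. Both mutant libraries lay under both controls, with a mean of 12.4 ± 1.45 against 15.2 ± 0.440 FPKM (SD, n = 2). The log2 fold change was -0.29 (SE 0.12, 95% interval -0.59 to 0.00097), with an unadjusted p of 0.0505 and an adjusted p of 0.788 by limma. With voom the same difference had an unadjusted p of 0.0126 and an adjusted p of 0.513, the lowest of 0.513 to 0.895 over the alternatives. The fitted mutant level was 0.816 times that of the control, a difference that did not pass after adjustment.

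*Cdh1* (ENSMUSG00000000303, chr8:107329983-107396878, plus strand), encoding E-cadherin, the junction protein of epithelia, was at 5.81 and 10.1 FPKM in the mutant and at 12.1 and 8.25 in the control. The reads behind these values were 474, 905, 1074 and 696, and the counting intervals of the 2 libraries of each group did not meet. The groups overlapped, with mutant library 2 above control library 2. The log2 fold change was -0.38 (SE 0.31, 95% interval -1.18 to 0.42), with an unadjusted p of 0.281 and an adjusted p of 0.811 by limma. Without mutant library 1 the fold change turned to 0.016, and without mutant library 2 it was -0.77.

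The 2 libraries with more *Xist*, mutant 2 and control 1, were those with more *Cdh1*, by 0.67 on the log2 scale over the other 2. Within the 2 pairs of like *Xist*, *Cdh1* was lower in the mutant both times, with log2 differences of -0.50 between mutant 1 and control 2 and -0.25 between mutant 2 and control 1. With the *Xist* split as a covariate, limma gave *Cdh1* an unadjusted p of 0.0262 and an adjusted p of 0.685, within 0.565 to 1 over the alternatives. The added term leaves fewer libraries for the error, which leans more on the spread borrowed from other genes than in the main fit. In that fit 2 of the 9 genes (*Cdh1* and *Cdh2*, both lower) had an unadjusted p under 0.05, beside 6.87% of all genes in either direction and 3.16% in the lower direction, and 0 of the 9 were called after adjustment, beside 0.00625% of all genes. Crystallins took 62.9% and 61.5% of reads in mutant 1 and control 2, against 58.6% and 59.0% in mutant 2 and control 1. The retina markers (5 genes) summed to 0.924 and 1.11 FPKM in mutant 1 and control 2, against 2.70 and 1.39. The lens epithelium markers (5 genes, *Foxe3* most abundant) summed to 129 and 147 FPKM in mutant 1 and control 2, against 151 and 139, so the pairs overlapped in this measure. The part of sex, fibre content and adjoining tissue in the *Cdh1* values was not tested.

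The ratio of N-cadherin to E-cadherin RNA per length, which increases in an EMT, was 1.96 and 1.33 in the mutant, against 1.28 and 1.80 in the control. The groups overlapped, and the ratio was higher in the low-*Xist* library of each group. In all 4 libraries *Cdh2* was the more abundant of the pair.

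Among the partners of these cadherins, β-catenin (*Ctnnb1*), which links them to the cytoskeleton and also carries Wnt signals, was at 60.7 and 67.5 FPKM in the mutant and at 64.7 and 68.3 in the control. Of the 6 catenin genes 0 were called by limma or voom, 3 were higher and 3 lower, with a median log2 fold change of -0.015. *Jup*, encoding plakoglobin, was at 0.671 and 0.683 FPKM in the mutant and at 0.999 and 0.893 in the control, without overlap (log2 fold change -0.43, SE 0.18, unadjusted p = 0.0587 by limma). *Ctnna1*, encoding α-catenin, was at 22.9 and 18.7 against 17.2 and 18.9 FPKM (0.20, SE 0.13, unadjusted p = 0.186 by limma).

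The other junction genes of epithelia were split between abundant and nearly absent. *Tjp1*, encoding the tight junction scaffold ZO-1, was at 30.91 and 30.96 FPKM in the mutant and at 28.4 and 30.8 in the control. *Pard3*, a polarity gene, was at 0.771 and 0.791 against 1.03 and 1.04, without overlap (unadjusted p = 0.0735 by limma). Of the 18 junction genes 11 were tested, 0 were called by limma or voom, and 4 were higher and 7 lower, with a median of -0.12. *Cldn4* was listed at 0 in all 4 libraries, and *Krt8*, *Cldn3*, *Cldn7* and *Dsp* had at most 3 reads in any library. E-cadherin RNA was thus measured in a tissue where several other epithelial junction transcripts were at or near 0. Of 17 further cadherin genes 7 were tested and 0 called, 3 higher and 4 lower, with a median of -0.11. *Cdh4* was the most abundant at 2.30 and 1.80 against 2.52 and 1.93 FPKM, so no other classical cadherin of the list came near *Cdh1* or *Cdh2*. *Cdh5*, of blood vessels, and *Cdh24* had the smallest unadjusted p, 0.246 and 0.467 by limma.

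*Acta2* (ENSMUSG00000035783, chr19:34218490-34232990, minus strand), encoding the smooth muscle α-actin of myofibroblasts, was at 12.6 and 11.001 FPKM in the mutant and at 9.79 and 11.2 in the control, from 494, 473, 418 and 454 reads. The groups overlapped, since mutant library 2 lay under control library 2. This gave a log2 fold change of 0.17 (SE 0.12, 95% interval -0.15 to 0.48), with an unadjusted p of 0.232 and an adjusted p of 0.811 by limma, so a mutant level from 0.902 to 1.40 times that of the control lay within the interval. Relative to β-actin (*Actb*), *Acta2* was at 0.0505 and 0.0497 in the mutant and at 0.0471 and 0.0482 in the control. Both differences within the pairs of like *Xist* were 0.17 on the log2 scale.

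The actin genes are alike in sequence, so the ends of their coding sequences are shown to let the reader judge how well reads can be told apart. These are the last 60 bases, stop codon included, in GRCm38 (GENCODE M21), each on the minus strand, at chr19:34241667-34241726 for *Acta2*, chr6:83512985-83513044 for *Actg2*, chr5:142903798-142903857 for *Actb* and chr11:120346390-120346449 for *Actg1*. Capitals mark bases that differ from *Acta2*.
Acta2: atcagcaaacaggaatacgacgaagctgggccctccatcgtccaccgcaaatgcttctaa
Actg2: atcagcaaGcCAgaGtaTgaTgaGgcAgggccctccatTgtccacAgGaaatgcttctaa
Actb: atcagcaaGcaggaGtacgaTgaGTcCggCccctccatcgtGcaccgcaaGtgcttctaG
Actg1: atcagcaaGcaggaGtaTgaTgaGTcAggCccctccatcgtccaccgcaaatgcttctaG
*Actg2* differed from *Acta2* at 11 of the 60 bases, *Actb* at 10 and *Actg1* at 9. Over the whole *Acta2* RNA, 1.39% of its 31-base words occurred in any other annotated gene, 0.785% in *Actb* and 1.20% in *Actg1*, and none in *Actg2*, *Acta1* or *Actc1*. *Actb* stood at 208 to 250 FPKM and *Actg1* at 117 to 136, while the muscle actins were low, with *Actg2* at 0.0991 to 0.394, *Actc1* at 1 read in 1 library and *Acta1* listed at 0 in every library.

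*Tagln* (ENSMUSG00000032085, chr9:45840917-45847356, minus strand), encoding SM22, an actin-binding protein made with *Acta2* in smooth muscle and myofibroblasts, had 0 and 4 reads in mutant libraries 1 and 2 and 2 and 0 in control libraries 1 and 2. That is 0 and 0.103 FPKM in the mutant, against 0.0517 and 0 in the control, and the libraries with 0 reads allow up to 0.0846 and 0.0819 FPKM (3 reads, counting error only). The value is uncertain, because 67.9% of the exon bases of *Tagln* in GENCODE M21 also lie in exons of *Pcsk7* and *Gm48529* on the other strand, and reads there may have gone uncounted if strand was not used. Divided by the remaining 32.1%, the values would be 0.320 FPKM in mutant library 2 and 0.161 in control library 1, still far under those of *Acta2*.

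Of the smooth muscle genes, *Myh11* and *Cnn1* were as low as *Tagln* without such an overlap. *Myh11*, the smooth muscle myosin, was at 0.0591 and 0.0269 FPKM in the mutant and at 0.0947 and 0.0286 in the control. *Cnn1*, calponin 1, was at 0.0410 and 0.0373 in the mutant and at 0 and 0.0198 in the control. Other contractile genes, which many non-muscle cells also use, were measured well above these, among them *Myl9* at 4.88 to 5.19 FPKM, *Tpm2* at 1.66 to 2.47 and *Cald1* at 11.4 to 14.2. The mural cell markers, for the pericytes and smooth muscle of vessels that also make *Acta2*, summed to 4.88 and 4.22 FPKM in the mutant and to 6.13 and 5.95 in the control, over 7 genes of which *Rgs5* was the most abundant and *Myh11*, *Des* and *Cspg4* were under the filter. Of the 4 mural markers tested, 2 were higher and 2 lower in the mutant, with a median log2 fold change of -0.020 and 0 called. Skeletal muscle markers (5 genes) summed to 0.219 to 0.568 FPKM, with *Acta1* and *Myl1* listed at 0. The part of vessel cells in the *Acta2* values was not tested.

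**Figure D2:**
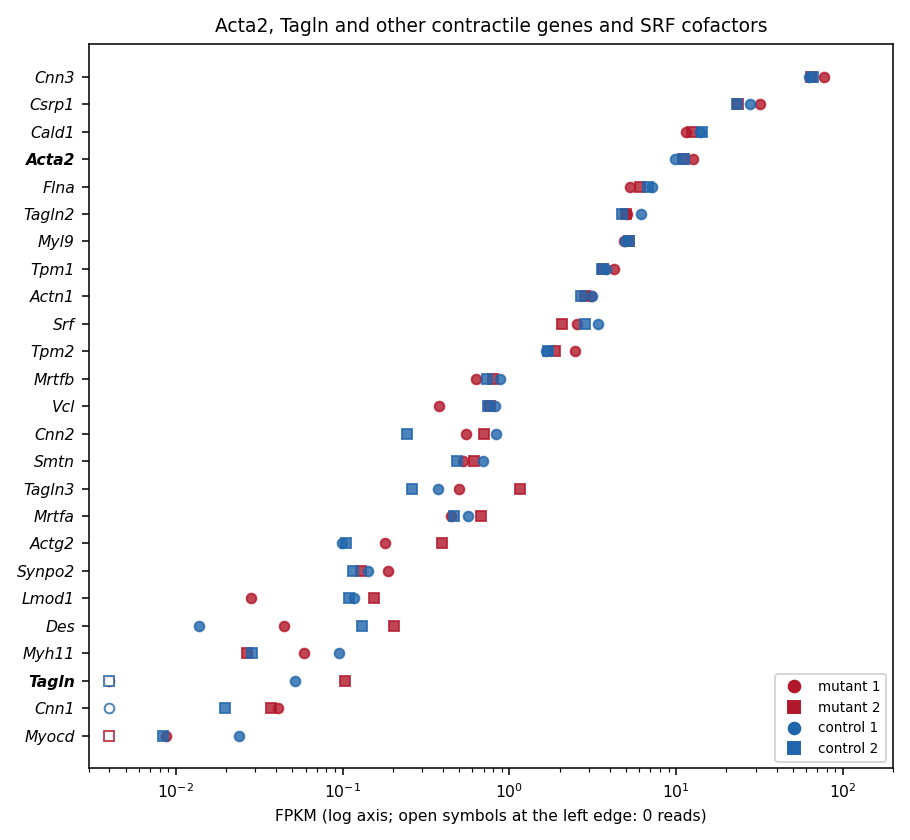
FPKM (log axis) of *Acta2*, *Tagln* (both in bold), the other contractile genes and the serum response factor (SRF) genes in each library, with red for mutant, blue for control, and open symbols at the left edge for 0 reads. *Acta2* lies at 9.79 to 12.6 FPKM, whereas *Tagln*, *Cnn1*, *Myh11* and *Myocd* all lie near or under 0.1 FPKM.

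Of 19 other contractile genes 16 were tested and 0 were called by limma or voom, with 9 higher, 7 lower and a median log2 fold change of 0.060. The most abundant was *Cnn3*, the calponin of non-muscle cells, at 77.5 and 64.3 FPKM in the mutant and at 62.3 and 66.1 in the control. *Tagln3*, a relative of *Tagln* known from neurons, was at 0.498 and 1.15 against 0.373 and 0.262 FPKM, without overlap, on 6 to 28 reads (1.06, SE 0.41, unadjusted p = 0.0494, adjusted p = 0.788 by limma). *Flna*, encoding the actin cross-linker filamin A, was at 5.28 and 6.08 in the mutant and at 7.20 and 6.78 in the control (-0.30, SE 0.12, unadjusted p = 0.0522 by limma).

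*Acta2* and its partners are textbook targets of SRF, which binds CArG boxes. The 250 bases before the *Acta2* start (RefSeq, GRCm38.p6, minus strand, chr19:34255374-34255623) are shown because SRF and its cofactors were measured beside *Acta2*. Capitals mark 2 CArG boxes with 1 departure from A or T in the inner bases, 84 and 34 bases before the start and not overlapping each other.
Acta2 promoter: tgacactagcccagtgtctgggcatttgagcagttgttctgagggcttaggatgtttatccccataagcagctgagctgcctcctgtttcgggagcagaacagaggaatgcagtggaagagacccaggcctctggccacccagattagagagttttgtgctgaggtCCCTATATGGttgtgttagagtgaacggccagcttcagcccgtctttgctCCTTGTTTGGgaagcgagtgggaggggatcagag
Of 32851 such windows of 250 bases, 8.59% held at least 1 CArG box with at most 1 departure on either strand, and 0.670% held 2. The match is of letters alone. *Srf* was at 2.56 and 2.07 FPKM in the mutant and at 3.41 and 2.85 in the control, without overlap, in the direction opposite to that of *Acta2* (-0.42, SE 0.17, unadjusted p = 0.0517, adjusted p = 0.788 by limma). Of its cofactors, *Mrtfa* (0.08, SE 0.27) and *Mrtfb* (-0.16, SE 0.21, unadjusted p = 0.485 by limma) overlapped between groups. *Myocd*, the cofactor of smooth muscle, had 0 to 3 reads per library.

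*Fn1* (ENSMUSG00000026193, chr1:71624679-71692359, minus strand), encoding fibronectin, the matrix protein laid down in lens fibrosis, was at 0.312 and 0.389 FPKM in the mutant and at 0.317 and 0.172 in the control, from 65, 89, 72 and 37 reads. The groups overlapped, with control library 1 just above mutant library 1. The mean was 0.351 ± 0.0544 against 0.244 ± 0.103 FPKM (SD, n = 2). In the fit the log2 fold change was 0.42 (SE 0.36, 95% interval -0.50 to 1.33), with an unadjusted p of 0.299 and an adjusted p of 0.811 by limma, and voom gave 0.57 with an unadjusted p of 0.0696. It was 0.10 without control library 2 and 0.73 without control library 1.

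Fibronectin RNA is also made by macrophages and fibroblasts, so their markers are given beside it. The immune markers (5 genes) summed to 1.40 and 1.45 FPKM in the mutant and to 0.747 and 0.394 in the control. The 2 that passed the filter, *C1qa* and *Cd68*, were higher without overlap and 0 were called. Of all tested genes 36.6% did not overlap in either direction. *C1qa* was at 1.02 and 0.638 against 0.445 and 0.261 FPKM, on 5 to 19 reads per library. *Ptprc* had at most 2 reads, so this sum does not stand for each immune marker. The blood markers (5 genes) overlapped, with sums of 25.2 and 17.2 FPKM in the mutant against 34.9 and 21.6 in the control. The fibroblast markers (6 genes) summed to 5.04 and 6.56 against 6.66 and 6.04 FPKM, mostly *Pdgfra*, with *Lum* at 0 and *Dcn* at 4 reads in mutant library 2 alone. Of the 3 fibroblast markers tested, *Pdgfra* was lower in the mutant and *Col1a1* and *Col1a2* were higher. Their median log2 fold change was 0.29, and limma and voom called 0, so the sum does not stand for each marker. The part of macrophages and fibroblasts in the *Fn1* values was not tested.

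Other mesenchymal genes lay higher in the mutant more often than lower, 9 against 4 of the 13 tested from a list of 17, with a median log2 fold change of 0.29 and 0 called by limma or voom. Of these 13, 3 had an unadjusted p under 0.05 by limma, beside 6.31% of all tested genes, and 3 by voom, beside 7.43%. Without overlap between groups, 4 lay higher and 1 lower in the mutant, beside 36.6% of all tested genes in either direction. The list's median was 0.11 without mutant library 2, 0.14 without control library 2, 0.47 without mutant library 1, 0.14 with a pseudocount of 1 and 0.15 with a mean FPKM of at least 1. *S100a4*, whose promoter drives the cre, was at 3.84 and 4.37 FPKM in the mutant and at 2.91 and 1.21 in the control (1.08, SE 0.40, unadjusted p = 0.0404, adjusted p = 0.783 by limma). *Spp1*, encoding osteopontin, was at 0.136 and 0.558 against 0 in both controls, on 4 and 18 reads (unadjusted p = 0.0368 by limma). *Col1a1*, chosen after its values were seen, was at 0.239 and 0.311 against 0.0470 and 0.0744 FPKM (1.22, SE 0.45, unadjusted p = 0.0421, adjusted p = 0.784 by limma), while *Vim*, encoding vimentin, was at 294 and 265 in the mutant and at 257 and 283 in the control (0.05, SE 0.11). Voom gave log2 fold changes of 1.10 for *S100a4*, 4.25 for *Spp1* and 2.15 for *Col1a1*, with adjusted p of 0.542, 0.354 and 0.250. *Vim*, the most abundant gene of the list, overlapped between groups, and the 3 genes with an unadjusted p under 0.05 rested on 0 to 50 reads per library.

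*Zeb1* (ENSMUSG00000024238, chr18:5591860-5775467, plus strand), a zinc finger repressor of E-cadherin, was at 1.88 and 1.59 FPKM in the mutant and at 1.82 and 2.25 in the control, from 344, 319, 363 and 425 reads. The groups overlapped, with mutant library 1 just above control library 1. The fitted log2 fold change was -0.22 (SE 0.17, 95% interval -0.65 to 0.22), with an unadjusted p of 0.265 and an adjusted p of 0.811 by limma.

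*Zeb2* (ENSMUSG00000026872, chr2:44873644-45007407, minus strand), its close relative, was at 1.15 and 1.13 FPKM in the mutant and at 1.35 and 1.498 in the control, from 415, 448, 530 and 558 reads. Both mutant libraries lay under both controls, at 1.14 ± 0.0139 against 1.42 ± 0.106 FPKM (SD, n = 2). The log2 fold change was -0.29 (SE 0.15, 95% interval -0.67 to 0.089), with an unadjusted p of 0.106 and an adjusted p of 0.811 by limma. With voom it was -0.31, with an unadjusted p of 0.0229 and an adjusted p of 0.589, the lowest of 0.589 to 0.895 over the alternatives. The antisense gene *Zeb2os*, whose exons share bases with *Zeb2* (3.30% of the *Zeb2* exon bases overlap other genes), had 17, 15, 13 and 14 reads in mutant 1, mutant 2, control 1 and control 2. Endothelial markers stand for vessel cells, which also make N-cadherin. They summed to 3.11 and 2.34 FPKM in the mutant and to 3.84 and 3.56 in the control. In the fit 6 of 6 were lower, beside 49.3% of all tested genes, with a median of -0.40 and 0 called. Only *Tie1* was without overlap between groups, and *Kdr* was nearly level, with a log2 fold change of -0.014. The part of vessel cells in the *Zeb2* and *Cdh2* values was not tested. The ratio of *Zeb1* to *Zeb2* per length was 1.63 and 1.40 in the mutant, against 1.35 and 1.499 in the control, so *Zeb1* was the more abundant in every library and the groups overlapped.

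*Snai1* (ENSMUSG00000042821, chr2:167380115-167384734, plus strand), encoding the repressor Snail, was at 0.346 and 0.126 FPKM in the mutant and at 0.476 and 0.134 in the control, from 10, 4, 15 and 4 reads. In each group the first library lay above the second. The log2 fold change of -0.21 (SE 0.61, 95% interval -1.75 to 1.34) changed sign when mutant library 2 or control library 1 was left out. With these few reads a mutant level from 0.297 to 2.52 times the control level lay within the interval.

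*Snai2* (ENSMUSG00000022676, chr16:14523716-14527249, plus strand), encoding Slug, was at 0 and 0.177 FPKM in the mutant and at 0.229 and 0.295 in the control, from 0, 7, 9 and 11 reads. Both mutant libraries lay under both controls, although the 0 of mutant library 1 allows up to 0.0833 FPKM (3 reads) and the counting interval of mutant library 2 (0.0711 to 0.364 FPKM) holds both control values. Its log2 fold change was -1.12 on the scale of log2(FPKM + 0.1) (SE 0.64, 95% interval -2.75 to 0.52), with an unadjusted p of 0.140 and an adjusted p of 0.811 by limma. Its size depended on the scale, at -0.22 with a pseudocount of 1, -2.64 with 0.01 and -2.36 by voom. Voom gave an unadjusted p of 0.0331 and an adjusted p of 0.620, within 0.474 to 0.895 over the alternatives. The difference rests on mutant library 1, without which it was -0.38. Of the *Snai2* words of 31 bases, 2.92% occurred in another annotated gene.

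*Twist1* (ENSMUSG00000035799, chr12:34007670-34009828, plus strand), a helix-loop-helix factor of mesenchyme, was at 0.0689 and 0.157 FPKM in the mutant and at 0.0632 and 0.267 in the control, from 2, 5, 2 and 8 reads. In each group the second library lay above the first. The log2 fold change of -0.23 (SE 0.63, 95% interval -1.83 to 1.37) changed sign when mutant library 1 or control library 2 was left out. No difference in *Snai1* or *Twist1* was detectable at this depth.

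**Figure D3:**
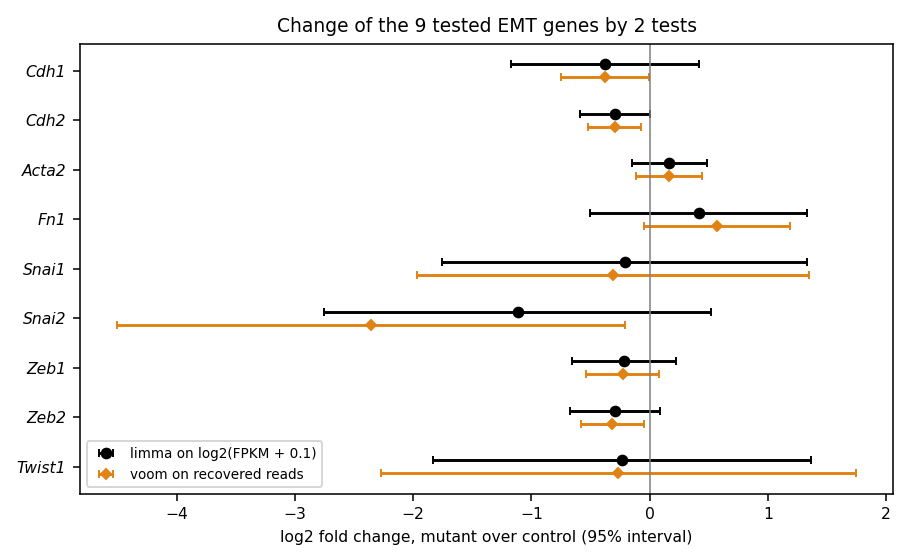
Log2 fold change, mutant over control, with 95% interval for the 9 tested EMT genes, by limma on log2(FPKM + 0.1) (black circles) and by voom on recovered reads (orange diamonds). All 9 limma intervals include 0, with that of *Cdh2* ending at 0.00097, while the voom intervals of *Cdh1*, *Cdh2*, *Snai2* and *Zeb2* lie under 0.

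The corepressors and turnover factors through which Snail and Zeb proteins act or are removed were all measured, 10 of 10. Limma and voom called 0 of them, 3 were higher and 7 lower, and the median log2 fold change was -0.18. *Kdm1a*, the histone demethylase recruited by Snail, was the most abundant, at 5.50 and 6.41 FPKM in the mutant and at 7.10 and 6.96 in the control. *Fbxl14*, part of a ubiquitin ligase for Snail proteins, was at 1.99 and 2.03 against 3.44 and 2.42 FPKM (-0.50, SE 0.19, unadjusted p = 0.0490, adjusted p = 0.788 by limma). *Ctbp2*, a corepressor of Zeb proteins, was at 2.47 and 2.67 against 3.01 and 3.47 FPKM (-0.32, SE 0.13, unadjusted p = 0.0606 by limma). In these 3 genes both mutant libraries lay under both controls. Of the 10, 5 were of this kind, beside 18.3% of all tested genes.

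**Figure D4:**
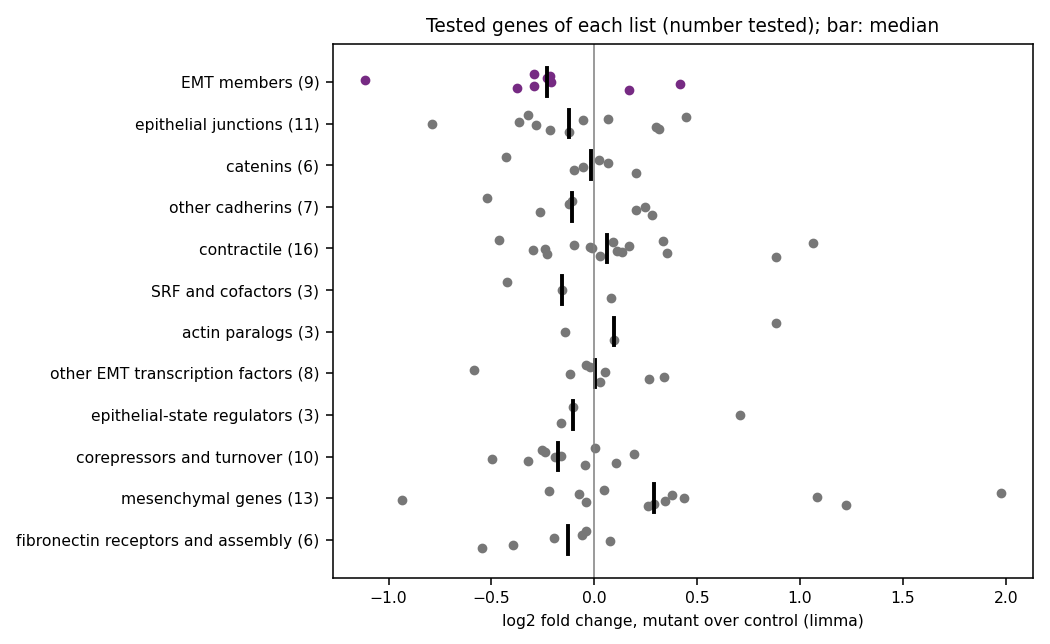
Log2 fold change of every tested gene in the EMT set (purple) and in each list of related genes (grey), with the number tested in brackets and the median as a bar. Medians run from -0.23 for the EMT genes to 0.29 for the mesenchymal genes, with the median of all tested genes at 0.0041.

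Other pseudocounts, scalings and voom altered the fold changes of the 9 EMT genes in 45 recomputed values, and the sign was kept in all 45. With 1 library left out it was kept in 31 of 36, and the 5 that turned were those of *Cdh1*, *Snai1* and *Twist1*. The remaining settings changed only the genes tested or the error, and could not alter these values. The smallest adjusted p under any alternative was 0.474, for *Snai2* without mutant library 2, by limma.

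**Figure D5:**
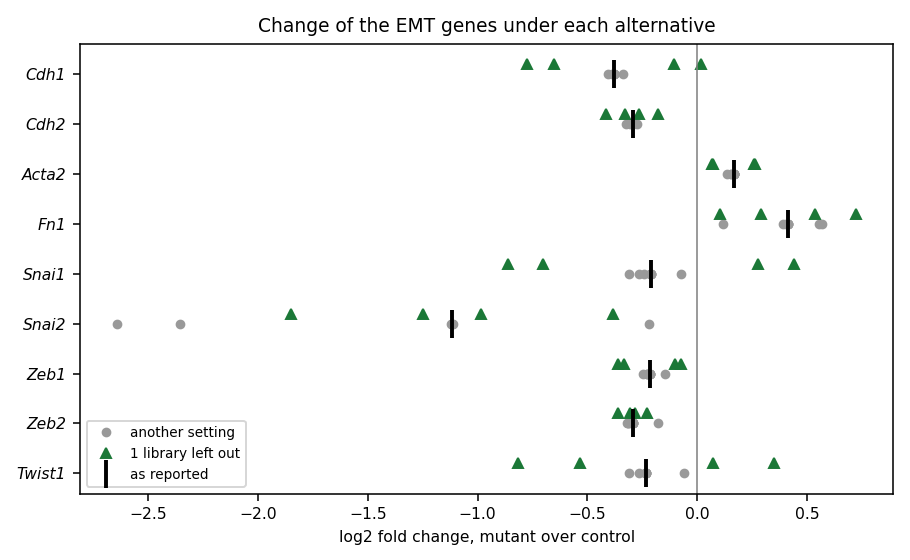
Log2 fold change, mutant over control, of the 9 tested EMT genes as reported (black bar), with 1 library left out (green triangles) and under other settings (grey circles). Triangles fall on both sides of 0 for *Cdh1* (-0.77 to 0.016), *Snai1* (-0.86 to 0.44) and *Twist1* (-0.81 to 0.35), and on 1 side for the other 6 genes.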

How the data were processed

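The deposited table gives FPKM of 56748 genes in 4 libraries with gene length and position. Per the study's methods, the authors' provider aligned reads with HISAT2 and counted them with featureCounts. The strand setting is not given in the sources used here. The build is mm39 per the submitters' processing notes. In every library 100% of the FPKM above 0 were whole multiples of 1 step after multiplying by gene length (tolerance 0.01 reads), so whole reads could be recovered (18561682 to 18878768 per library). The table has 0 unused per-sample columns.

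Libraries were rescaled by their median ratio, which was 1.01 in each, so this step changed nothing. The deposited FPKM were already scaled, by 0.944 to 1.05 times the recovered reads of each library. The 15997 genes whose FPKM averaged 0.1 or more entered limma (lmFit, eBayes with trend, two-sided) as log2(FPKM + 0.1), and p-values were adjusted by Benjamini-Hochberg over all of them. Fold changes on this scale understate those of low genes. Voom on the recovered reads, other pseudocounts, filters and scalings, an *Xist* covariate, the replicate block and leaving out each library were alternatives. The labels do not say whether libraries with the same replicate number were paired. Their deviations had a correlation of -0.0051, which cannot decide this, since libraries handled together need not deviate together. Both tests were tried on simulated data. Intervals of single values are exact Poisson and cover counting error only.

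The EMT genes and the lists of related genes were chosen with earlier results of these data known. Named genes are the 10 EMT genes, *Vim*, *S100a4*, *Pdgfrb*, *Ctnnb1*, *Cnn1* and *Myh11*, and the most abundant and the 2 of smallest p of each list. 1 gene that this rule names is not reported here. Marker lists are given by summed FPKM with the genes that define them. Genes given for sequence overlap, for the tissue check, beside *Myh11* and *Cnn1* or because they were at or near 0 lie outside the rule and were chosen after their values were seen. Promoter windows were held for 4 of the 10 genes in the RefSeq table, and overlaps of exons and words come from GENCODE M21 on GRCm38. Software was R 4.3.3, limma 3.58.1, Python 3.11.15, numpy 2.4.6, pandas 2.3.3, scipy 1.17.1 and matplotlib 3.10.9.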

Additional observations from a re-analysis of the deposited data

How the results depend on the processing

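Of the EMT genes 0 were called under any of the 14 alternatives. The number with an unadjusted p under 0.05, 0 as reported, was 1 with a pseudocount of 0.01, with no filter, with a mean FPKM of at least 1 and with totals without crystallins, 2 with the *Xist* covariate, 4 with voom, and 0 to 2 with 1 library left out. Over all genes, limma called 4 higher and 2 lower. These counts were 1 and 1 with a pseudocount of 1 or 0.01, with a mean FPKM of at least 1 and without the trend, 1 and 0 with no filter and with the *Xist* covariate, 7 and 7 with voom, and 0 and 0 with any library left out. With the replicate block, which pairs libraries by the number in their label, they were 2 and 1, and 0 EMT genes had an unadjusted p under 0.05. Deviations of libraries with the same number had a correlation of -0.0051 over the tested genes and -0.113 over those with a mean FPKM of at least 1, and the crossed pairing is the *Xist* split. Log2 fold changes turned sign without mutant library 1 for *Cdh1* (0.016) and *Twist1* (0.071), without mutant library 2 for *Snai1* (0.28), without control library 1 for *Snai1* (0.44) and without control library 2 for *Twist1* (0.35). With 1 library left out, the values ran from -0.77 to 0.016 for *Cdh1*, from -0.86 to 0.44 for *Snai1* and from -0.81 to 0.35 for *Twist1*. The cause was not tested. In these fits the lone sample of its group is assumed to vary like the other group. A mean FPKM of at least 1 gives no value for *Fn1*, *Snai1*, *Snai2* and *Twist1*. Depth limits *Snai1*, *Snai2*, *Twist1* and *Tagln*, which rest on at most 15 reads per library. *Fn1* rests on 37 to 89 reads per library. The counting intervals of its control libraries 1 and 2 did not meet (0.248 to 0.399 and 0.121 to 0.237 FPKM), so counting error alone does not cover their spread. Among the settings that altered them, the medians of the related lists kept their sign in 98 of 116 values. The sign was kept throughout for epithelial junctions, SRF and cofactors, corepressors, mesenchymal genes and fibronectin receptors.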

Other observations

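Factors that hold cells in the epithelial state were scarce in these lenses. Of 16 genes listed, 5 of them miRNA precursors, 3 passed the filter, *Grhl1*, *Grhl3* and *Klf4*. Limma and voom called 0, with 1 higher and 2 lower. *Grhl1* was the most abundant, at 0.375 and 0.535 FPKM in mutant libraries 1 and 2 and at 0.585 and 0.451 in control libraries 1 and 2. The genes *Ovol2*, *Esrp2* and *Elf5* were listed at 0 in all 4 libraries. So were the 5 precursors of the miR-200 family, which targets *Zeb1* and *Zeb2*. These precursors are listed at 69 to 90 bases, and poly-A libraries are not made to capture such short RNA. Their 0 therefore gives no measure of this family. *Grhl3* was at 0.161 and 0.147 FPKM in the mutant and at 0.0738 and 0.0389 in the control, on 2 to 8 reads (unadjusted p = 0.248 by limma).

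Of 13 other transcription factors known from EMT 8 were tested and 0 called by limma or voom, 4 higher and 4 lower, with a median log2 fold change of 0.0027. *Sox4*, a factor that acts in EMT downstream of TGFβ, was at 2.02 and 2.81 FPKM in the mutant and at 4.03 and 3.26 in the control, without overlap (-0.58, SE 0.20, unadjusted p = 0.0348, adjusted p = 0.771 by limma). *Hmga2*, a chromatin protein that acts on *Snai1* and *Twist1*, was at 2.55 and 3.26 against 2.27 and 2.24 FPKM (0.34, SE 0.16, unadjusted p = 0.0831 by limma). *Tcf3*, the most abundant, was at 7.30 and 7.16 against 7.21 and 7.47 FPKM. The fibronectin receptors and assembly genes had 1 higher and 5 lower of 6 tested, 0 called and a median of -0.13. Integrin β1 (*Itgb1*), their most abundant member, was at 30.99 and 34.4 FPKM in the mutant and at 37.6 and 37.1 in the control, and *Itga5*, its partner in the main fibronectin receptor, was at 0.432 and 0.373 against 0.605 and 0.660 FPKM, both without overlap (unadjusted p = 0.0918 and 0.0563 by limma).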
